A study of Mus musculus with 6 samples.

Results

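The cytosolic ribosomal protein genes encode the proteins of the ribosome that works outside the mitochondria. Members were taken by name, as protein-coding mouse genes whose symbol is Rpl, Rps or Rplp followed by a number and at most 1 further letter. The rule found 79 genes among the 55487 in the files, 49 of the large subunit and 30 of the small subunit. A further 3 symbols of this form, Rps4l, Rpl6l and Rpl32l, are annotated as pseudogenes and were not members. Their messenger RNA was measured by RNA-seq in the epidermis of newborn mice, in 3 libraries labelled control and 3 labelled Znf750 cKO. The targeted gene has the mouse symbol Zfp750, and its zinc finger protein is a transcription factor known for its part in keratinocyte differentiation. The mice were at postnatal day 0, and the series describes them as knockout and control mice. The labels name neither the strain, the sex, the Cre driver nor the floxed allele, and they do not say whether pups were pooled. They also do not say that the 3 libraries of a group came from separate animals, so a p-value measures the spread between these libraries, which may be technical. Back skin was split with dispase, the epidermis was dissociated with trypsin, and poly(A) RNA of the cell suspension was sequenced as 100-nucleotide single reads. Values are FPKM, the fragments of a transcript divided by its length in kilobases and by the size of the library.

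Ribosomal proteins bind ribosomal RNA and are needed in equal numbers, because each ribosome holds a single copy of nearly all of them. Their transcripts are among the most abundant of a cell. They typically begin at a C followed by a run of C and T, the 5′ terminal oligopyrimidine tract or 5′ TOP, through which the mTOR pathway adjusts their translation. These short, abundant messenger RNAs have often been copied back into the genome, so the mouse genome holds many retrocopies and pseudogenes of the family. In skin, mice with mutations in Rps19 or Rps20 have dark footpads and tails, through p53 and Kit ligand in keratinocytes.

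The start sites below show the sequence feature for which the class is known, in members described further on, and 2 members in which no such run was found at the listed start. Each window runs from 10 bases before the RefSeq transcription start of GRCm38.p6 through the first 20 transcribed bases, and its capitals mark the run of C and T at the start.
Rpl13a, minus strand, chr7:45128726-45128755: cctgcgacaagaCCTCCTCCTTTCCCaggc
Rpl27a, plus strand, chr7:109519185-109519214: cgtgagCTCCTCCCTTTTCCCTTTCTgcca
Rpl28, plus strand, chr7:4792955-4792984: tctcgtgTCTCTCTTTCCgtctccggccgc
Rpl38, plus strand, chr11:114668570-114668599: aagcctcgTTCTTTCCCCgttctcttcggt
Rplp2, plus strand, chr7:141447641-141447670: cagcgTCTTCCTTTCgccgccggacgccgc
Rps10, minus strand, chr17:27635225-27635254: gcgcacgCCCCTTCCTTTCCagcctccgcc
Rps18, minus strand, chr17:33955646-33955675: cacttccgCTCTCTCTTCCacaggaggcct
Rps27, minus strand, chr3:90213629-90213658: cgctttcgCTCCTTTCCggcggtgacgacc
Rps3, minus strand, chr7:99483690-99483719: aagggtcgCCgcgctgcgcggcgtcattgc
Rps19, plus strand, chr7:24884582-24884611: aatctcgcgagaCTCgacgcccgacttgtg
A RefSeq start was matched for 59 of the 79 members, with 71 listed starts between them. A run of at least 8 C or T bases, on the transcribed strand and touching the 3 bases on either side of the start, was present at 20 of the 71 starts (28.2%). The same run was present at 7.49% of the 21262 starts of 17491 protein-coding genes in the same table. The letters CTTTC were found on the transcribed strand in 21.1% of the members' windows and in 3.46% of all windows. The letters CTTTT were found in 7.04% and 2.72%. Large subunit starts held the run in 29.5% of cases and small subunit starts in 25.9%. These are matches of letters at listed starts, and the start of transcription in epidermis was not measured here.

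The libraries fitted their labels at the targeted gene. Zfp750 was at 44.82, 32.02 and 34.94 FPKM in control libraries and 0.99, 0.83 and 1.47 FPKM in the Znf750 cKO libraries. From the spacing of low FPKM values the libraries were estimated to hold 21500000 to 35400000 reads. With this depth and the length of a chosen transcript, the FPKM of tested members convert to at least 119 reads in every library. The median over members and libraries was 24220. Reads shared with other genes are not set apart in these figures. Keratinocyte markers were abundant in every library, with Krt5 between 6275 and 6973 FPKM. Over 11 leukocyte markers the summed level was 135 to 218 FPKM in control and 20.2 to 27.7 FPKM in Znf750 cKO libraries, with 8 of the 9 tested markers lower by limma. Cd207, the defining marker of Langerhans cells, was at no more than 0.06 FPKM in any library. Over 7 fibroblast markers the sum was 295 to 423 FPKM in control and 214 to 265 FPKM in Znf750 cKO libraries. Of 4 tested, 0 were called and 2 had positive estimates. By limma 1 had an unadjusted p under 0.05, as had 21.3% of all tested genes. The lower sum was not shared by all markers, with log2 estimates of -0.039 for Dcn, 0.073 for Col1a2 and 0.115 for Col3a1. Col1a1 was at no more than 0.59 FPKM and Dcn between 105 and 164 FPKM. None of the 7 melanocyte, 2 endothelial and 1 skeletal muscle markers tested was called. The summed level of 9 mitochondrial messenger RNAs was 75160 to 84610 FPKM in control and 69840 to 74410 FPKM in Znf750 cKO libraries, with 0 of 9 past the test. In RNA from a mixed suspension, fewer cells of a type and less RNA per cell cannot be told apart.

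No ribosomal protein gene passed the test for a difference between Znf750 cKO and control epidermis. Of the 79 members, 76 reached 1 FPKM in at least 3 libraries and were tested with limma on log2(FPKM + 1), together with all 13688 genes that met this filter. At a Benjamini-Hochberg adjusted p under 0.05, 0 of 46 large subunit members and 0 of 30 small subunit members were called. The background in the same fit was 4.22% of all tested genes, 1.11% higher and 3.10% lower in Znf750 cKO. At an unadjusted p under 0.05 the count of members was also 0, against 21.3% of all tested genes, and the smallest adjusted p of a member was 0.352. The 95% intervals reflect the spread between these libraries on the deposited FPKM scale. For 75 of the 76 members the interval lay within 0.5 of 0 on the log2 scale, and for Rps3 it reached 0.51. The choice of scaling is not covered by these intervals. With median-ratio scaling the members' estimates ran from 0.024 to 0.312.

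The estimates were small and mostly positive. Log2 differences of large subunit members ran from -0.085 to 0.19 with a median of 0.054, and 42 of 46 were above 0. Those of small subunit members ran from -0.057 to 0.20 with a median of 0.061, and 25 of 30 were above 0. The median over all tested genes was -0.077, and over the 814 genes with a mean of at least 100 FPKM it was 0.005. The sign depended on the scaling and on the library. After median-ratio scaling all 76 members were above 0 with a median of 0.16 while the median of all tested genes was 0.018. In that fit 3 members had an unadjusted p under 0.05, and the smallest adjusted p was 0.174. With every library scaled to the same summed FPKM of members, 37 of 76 were above 0. This scaling takes out the shift that the members share, so the count does not bear on their sign. Without Znf750 cKO replicate 2 the members' median was -0.027 with 27 of 76 above 0, and without control replicate 1 it was 0.004 with 40 of 76 above 0.

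**Figure D1:**
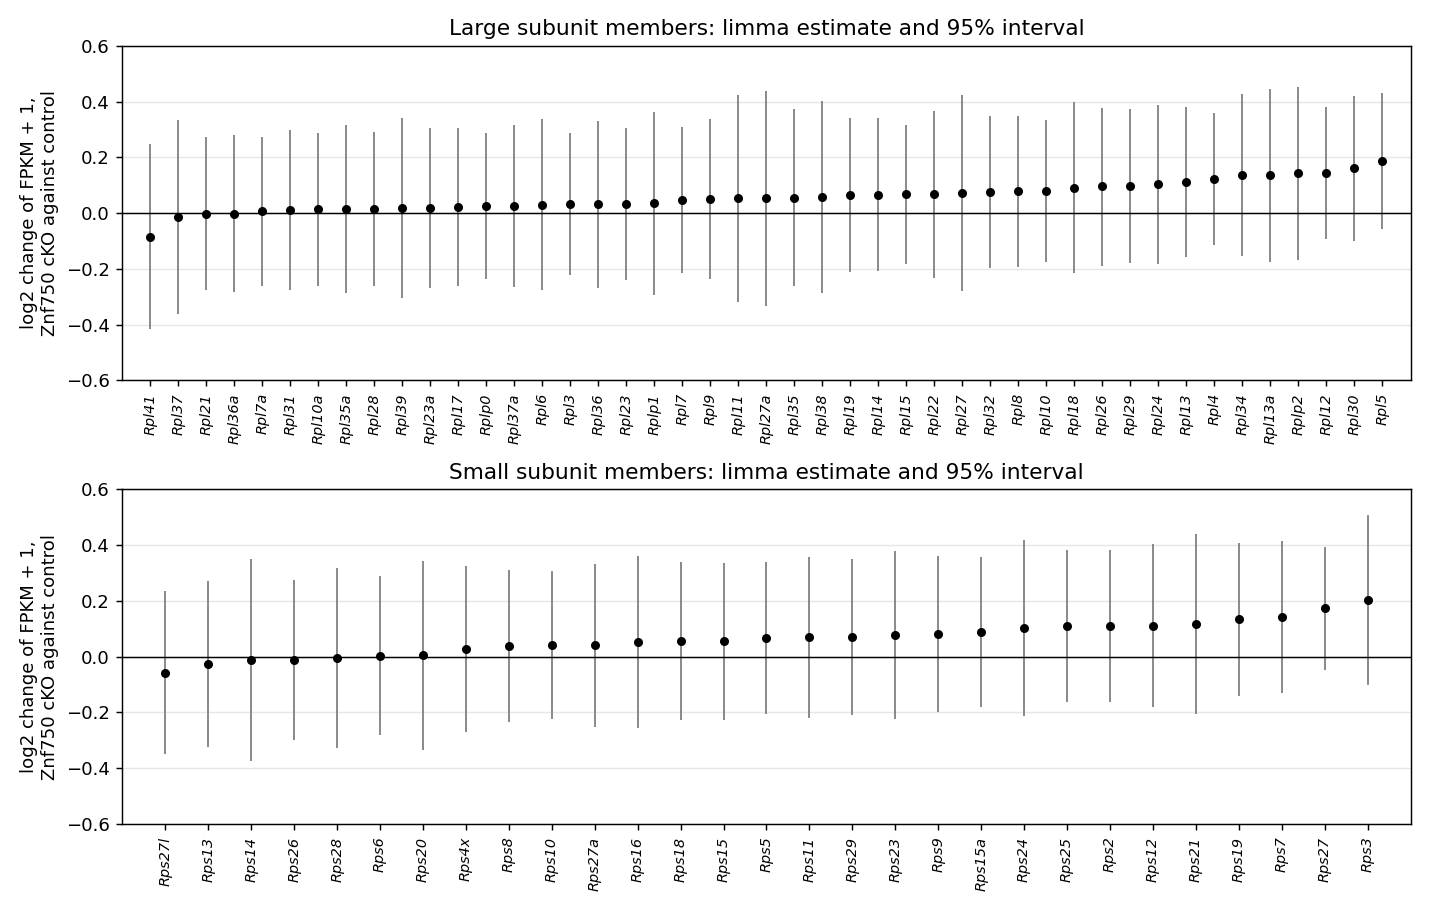
Log2 difference of FPKM + 1 (vertical axis, Znf750 cKO against control) for tested large subunit members (top) and small subunit members (bottom), ordered by estimate, with 1 member of each subunit not drawn. Points are limma estimates over 3 libraries a group and bars their 95% intervals, and every bar crosses 0.

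The members stood high or low together from library to library, within as well as between the groups. Znf750 cKO replicate 2 held the highest value of 69 of the 76 tested members, whereas it held the highest value of 11.6% of all tested genes. Control replicate 1 held the lowest value of 53 members and of 10.4% of all tested genes. Relative to each member's mean over the 6 libraries, the median member stood at -0.155, 0.042 and 0.027 on the log2 scale in the control libraries and at -0.061, 0.196 and -0.035 in the Znf750 cKO libraries. Znf750 cKO replicate 2 also had the fewest genes above 0 FPKM, 24045 against 26064 to 29087 in the other libraries. The part of this library difference in the members' estimates was not tested beyond leaving the libraries out.

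Summed over the large subunit, the members reached 61187, 70092 and 71252 FPKM in control and 65173, 77928 and 67340 FPKM in Znf750 cKO libraries. The small subunit sums were 44580, 49974 and 50596 FPKM in control and 47281, 56662 and 48015 FPKM in Znf750 cKO. For both subunits control replicate 1 was the lowest and Znf750 cKO replicate 2 the highest, so the groups overlapped. Between these extremes, Znf750 cKO replicates 1 and 3 lay below control replicates 2 and 3 in both sums. The members made up 15.6% ± 0.719 of all FPKM in control and 16.4% ± 0.957 in Znf750 cKO (SD, n = 3 each). The ratio of the large to the small subunit sum varied less than either sum, from 1.37 to 1.41 in control and from 1.38 to 1.40 in Znf750 cKO.

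**Figure D2:**
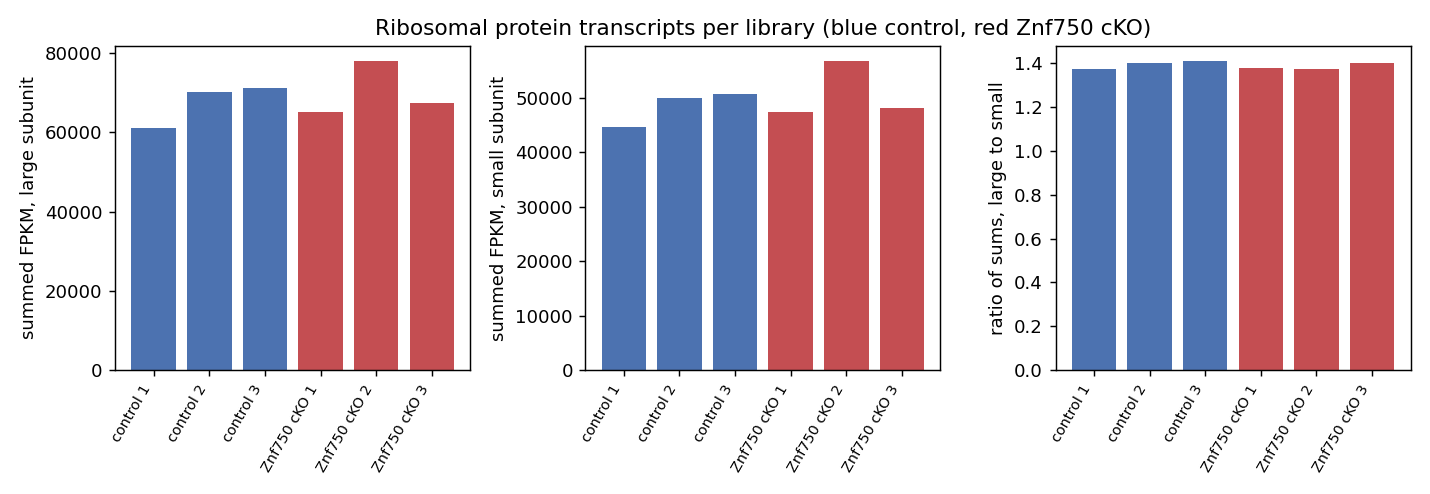
Summed FPKM of large subunit members (left), of small subunit members (middle) and the ratio of the 2 sums (right) in each library, control in blue and Znf750 cKO in red. The sums are lowest in control 1 and highest in Znf750 cKO 2, while the ratio stays between 1.37 and 1.41.

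The members differed in level far more than any of them differed between groups. Mean levels over the 6 libraries were at least 1000 FPKM for 60 members and between 100 and 1000 FPKM for 13, and the tested members Rps27, Rpl12 and Rpl5 lay below 100 FPKM. The median was 1381 FPKM for the large subunit and 1811 FPKM for the small subunit, with the middle 50% between 1013 and 1623 FPKM and between 1458 and 1928 FPKM. The order of the members was nearly the same in every library. Spearman's rho over the 76 members lay between 0.970 and 0.995 in the 15 pairs of libraries, a description over genes that share each library's depth and counting.

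**Figure D3:**
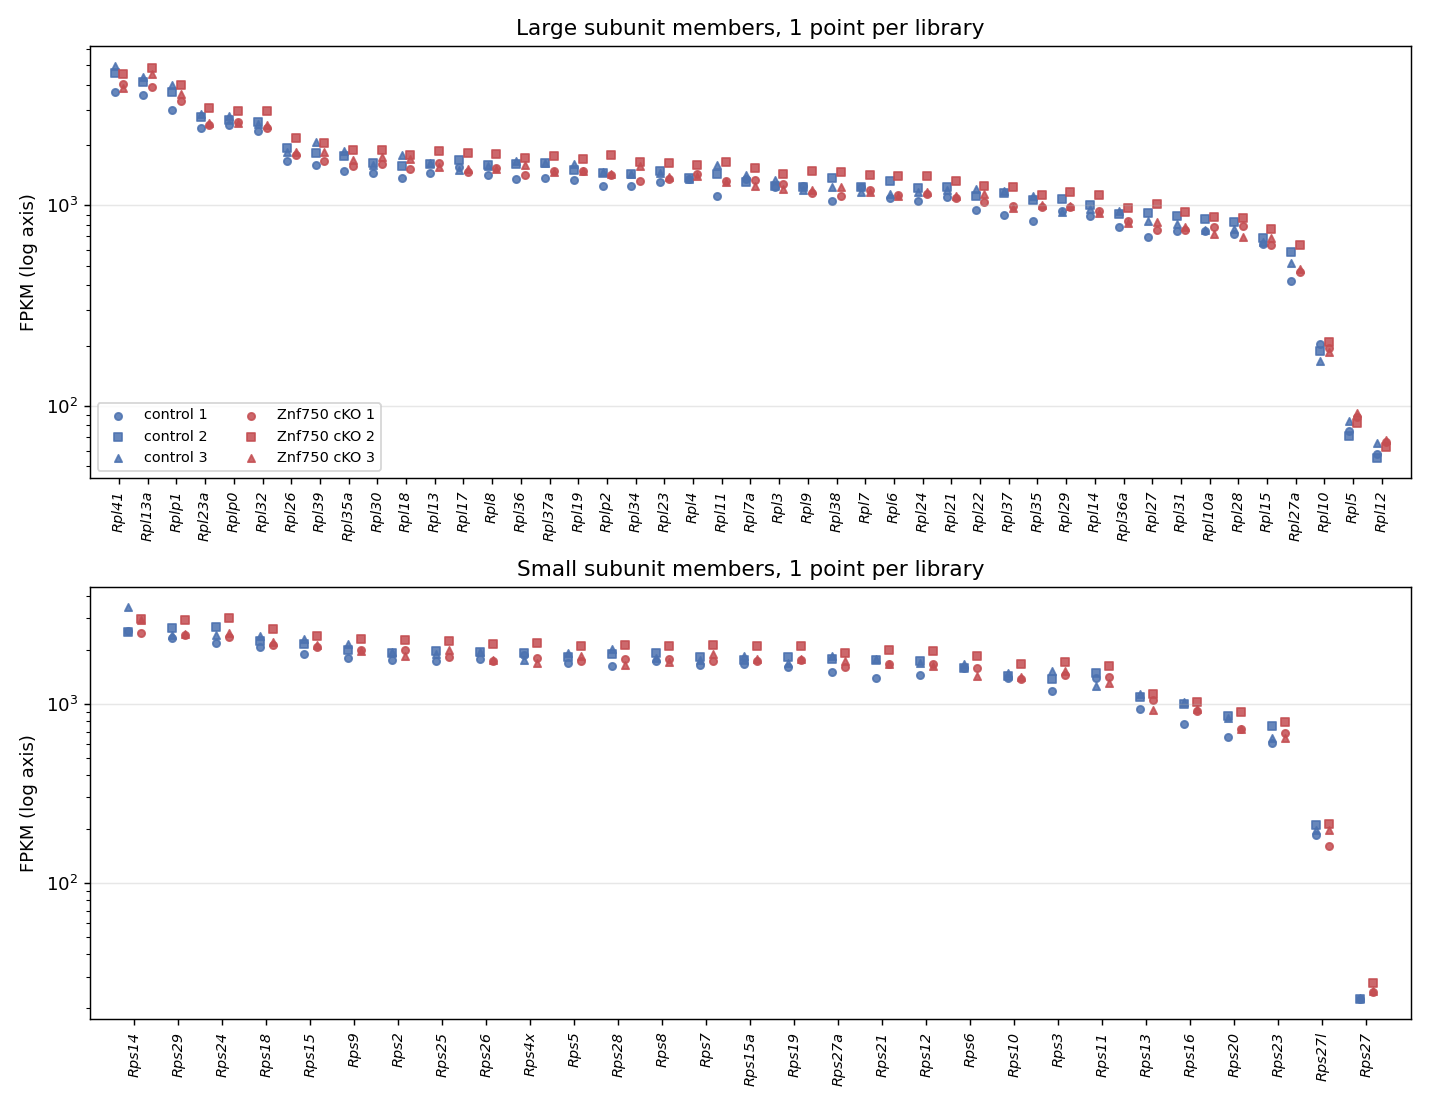
FPKM of the tested members, apart from 1 of each subunit that is not drawn (log axis), in the 3 control libraries (blue) and 3 Znf750 cKO libraries (red), ordered by mean level, for the large subunit (top) and the small subunit (bottom). Most members lie close to 1000 to 2000 FPKM in all libraries, and Rpl10, Rpl5, Rpl12, Rps27l and Rps27 lie far below.

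The large subunit members with the highest mean levels included Rpl41, Rpl13a and Rplp1. Rpl41, which encodes a very short basic peptide of the ribosome, was at 3667, 4586 and 4974 FPKM in control libraries and 4048, 4509 and 3841 FPKM in Znf750 cKO libraries. It also had the lowest log2 difference of all members, -0.085 ± 0.144 (SE), and its groups overlapped. Rpl13a, known as well from translational silencing in inflammation, was at 3556, 4123 and 4381 FPKM in control libraries and 3896, 4862 and 4506 FPKM in Znf750 cKO. Of the 3 Znf750 cKO libraries 2 exceeded the control range, and the difference was 0.14 ± 0.135 (SE).

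The stalk of the large subunit, which recruits translation factors, consists of Rplp0, Rplp1 and Rplp2 on a base that includes Rpl12. All 4 stalk genes had positive differences, 0 passed the test, and their median was 0.089. Rplp1 was at 2973, 3688 and 3965 FPKM in control libraries and 3297, 3961 and 3580 FPKM in Znf750 cKO. Rplp2 was at 1245, 1455 and 1475 FPKM in control libraries and 1415, 1784 and 1426 FPKM in Znf750 cKO. In both genes only control replicate 1 stood below all Znf750 cKO libraries, and the estimates were 0.035 and 0.14. The scaffold gene Rplp0 had means of 2657 ± 149 and 2707 ± 227 FPKM (SD, n = 3 each).

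Rpl5 and Rpl11 bind 5S ribosomal RNA, and the free complex is known to inhibit Mdm2. Rpl5 had the highest estimate of the large subunit, 0.19 ± 0.106 (SE, adjusted p = 0.36 by limma). It was at 75.1, 71.2 and 84.7 FPKM in control libraries and 88.4, 82.0 and 92.8 FPKM in Znf750 cKO. The lowest Znf750 cKO library lay below the highest control library, so the groups overlapped. Rpl11 was at 1116, 1431 and 1582 FPKM in control libraries and 1315, 1638 and 1310 FPKM in Znf750 cKO, with an estimate of 0.053.

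Proteins around the peptide exit tunnel, where the new chain leaves the ribosome, were represented by 9 members. All 9 had positive estimates, 0 passed the test, and the median was 0.055. Rpl4 lines the tunnel and was at 1348, 1364 and 1349 FPKM in control libraries and 1435, 1585 and 1407 FPKM in Znf750 cKO. Its groups did not overlap, yet its difference of 0.12 ± 0.102 (SE) did not pass (adjusted p = 0.55 by limma). The other 8 were Rpl17, Rpl19, Rpl23a, Rpl26, Rpl31, Rpl35, Rpl38 and Rpl39, whose estimates ran from 0.012 for Rpl31 to 0.096 for Rpl26. Rpl38, known from mice with homeotic skeletal defects, was at 1055, 1373 and 1236 FPKM in control libraries and 1109, 1475 and 1237 FPKM in Znf750 cKO, so its groups overlapped.

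The remaining extremes of the large subunit had mean levels below the subunit's median, apart from Rpl30 with a mean of 1651 FPKM. Rpl30, a small RNA-binding protein of the subunit interface, was at 1451, 1633 and 1591 FPKM in control libraries and 1607, 1892 and 1733 FPKM in Znf750 cKO, with an estimate of 0.16 ± 0.113 (SE). Rpl12 was at 57.4, 54.9 and 65.4 FPKM in control libraries and 66.2, 62.4 and 67.7 FPKM in Znf750 cKO, with an estimate of 0.14. In both genes 2 of 3 Znf750 cKO libraries exceeded all controls. Rpl37 and Rpl21 had estimates of -0.014 and -0.003, with control means of 1075 ± 154 and 1174 ± 65.0 FPKM and Znf750 cKO means of 1063 ± 147 and 1175 ± 132 FPKM (SD, n = 3 each).

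In the small subunit the 4 highest mean levels were those of Rps14, Rps29, Rps24 and Rps18. Rps14, whose protein lies on the platform, was at 2561, 2499 and 3481 FPKM in control libraries and 2491, 2988 and 2913 FPKM in Znf750 cKO. Control replicate 3 was the highest here, unlike in most members, and the estimate was -0.013 ± 0.157 (SE). Rps29, a zinc-binding protein of the head, had means of 2465 ± 150 and 2597 ± 293 FPKM, and Rps18 had means of 2231 ± 155 and 2323 ± 257 FPKM in control and Znf750 cKO (SD, n = 3 each). Rps24, which has alternatively spliced forms, had means of 2427 ± 249 and 2614 ± 349 FPKM (SD, n = 3 each). In all 4 genes the groups overlapped.

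The entry of the messenger RNA channel and the decoding site were represented by Rps2, Rps3, Rps9, Rps15 and Rps23. All 5 had positive estimates with a median of 0.081, and 0 passed the test. Rps3, a channel protein also known from DNA repair, was at 1173, 1374 and 1521 FPKM in control libraries and 1443, 1701 and 1525 FPKM in Znf750 cKO. Its estimate of 0.20 ± 0.132 (SE) was the highest of all members, and control replicate 3 exceeded the lowest Znf750 cKO library. Rps2 had means of 1876 ± 105 and 2031 ± 214 FPKM, and Rps9 had means of 1975 ± 180 and 2088 ± 185 FPKM (SD, n = 3 each). The estimates of Rps15 and Rps23 were 0.056 and 0.078.

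Rps27, a zinc-finger protein of the small subunit, was the other member whose groups did not overlap. It was at 22.6, 22.5 and 22.8 FPKM in control libraries and 24.6, 27.5 and 24.9 FPKM in Znf750 cKO, with a log2 difference of 0.17 ± 0.096 (SE, adjusted p = 0.352 by limma). All 3 Znf750 cKO libraries were above the controls, and replicate 2 was the highest. In all, 2 of 76 members (2.63%) had groups that did not overlap, both higher in Znf750 cKO, against 28.0% of all tested genes. Rps7, which also binds Mdm2, was at 1644, 1815 and 1745 FPKM in control libraries and 1727, 2139 and 1897 FPKM in Znf750 cKO, with an estimate of 0.14. The lowest estimates of the subunit were -0.057 for Rps27l, -0.027 for Rps13 and -0.013 for Rps14.

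The 2 genes known from dark-skinned mice did not differ detectably. Rps19 was at 1598, 1824 and 1694 FPKM in control libraries and 1747, 2097 and 1783 FPKM in Znf750 cKO. Rps20 was at 654.8, 852.6 and 832.9 FPKM in control libraries and 724.3, 901.4 and 719.7 FPKM in Znf750 cKO. Both genes had overlapping groups, and their 95% intervals ran from -0.14 to 0.41 for Rps19 and from -0.335 to 0.345 for Rps20. Rps19 belongs to a list of 9 members whose human counterparts are mutated in Diamond-Blackfan anaemia, an inherited failure of red cell production. The list was chosen here and may leave out other such members. Of the 9 listed, 8 had positive estimates, the median was 0.053 and 0 passed the test. Besides Rps19, Rps7, Rpl5 and Rpl11 they include Rps10, Rps24, Rps26 and Rpl35a, with estimates from -0.012 for Rps26 to 0.10 for Rps24.

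Of the paralogues that can replace a common ribosomal protein, 3 were at or near 0. Rpl3l, the form of striated muscle, was at 0.35 FPKM in control replicate 1 and listed at 0 in the other 5 libraries. Rpl10l, known from testis, was at no more than 0.15 FPKM, and Rpl39l, also known from the male germ line, was between 0.17 and 0.77 FPKM. These are the 3 members that were not tested. By contrast, Rps27l, a p53 target, was at 186.3, 209.5 and 197.6 FPKM in control libraries and 161.9, 213.5 and 197.9 FPKM in Znf750 cKO. Its control range lay inside that of Znf750 cKO, and its row was higher than that of Rps27 in every library. Rps4l, annotated as a pseudogene and not a member, was at 41.9, 54.2 and 44.7 FPKM in control libraries and 38.5, 44.3 and 33.7 FPKM in Znf750 cKO, with overlapping groups and an estimate of -0.27 ± 0.139 (SE, adjusted p = 0.323 by limma).

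For Rps27 and several other members most of the signal of the family stood on rows of near-identical copies. The coding sequence of each member was searched in all GENCODE M21 transcripts for copies of at least 95% identity over at least 80% of its length. Such a copy was found for 72 of the 79 members, 550 copies in all, of which 533 are annotated as pseudogenes. Rpl21 had the most, 57. Of the 550, 78 had a mean of at least 1 FPKM, and 23 members had a copy identical to their coding sequence over the aligned part. Among tested members, 48 held at least 90% of the FPKM summed over themselves and their copies, 13 held under 50% and 4 held under 20%.

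Rps27 was the extreme case, with 0.63% of the summed FPKM on its own row. The retrotransposed copy Rps27rt, on chr9:114982366-114982739, has a coding sequence identical to that of Rps27 and was at 3207, 4098 and 3884 FPKM in control libraries and 3255, 4391 and 3981 FPKM in Znf750 cKO. The paralogue Rps27l differs from Rps27 at 61 of the 255 coding bases (76.1% identity). The coding sequences of both, from GENCODE M21 on GRCm38, show where they differ, with the differing bases in capitals.
Rps27, minus strand, gene at chr3:90212522-90213651: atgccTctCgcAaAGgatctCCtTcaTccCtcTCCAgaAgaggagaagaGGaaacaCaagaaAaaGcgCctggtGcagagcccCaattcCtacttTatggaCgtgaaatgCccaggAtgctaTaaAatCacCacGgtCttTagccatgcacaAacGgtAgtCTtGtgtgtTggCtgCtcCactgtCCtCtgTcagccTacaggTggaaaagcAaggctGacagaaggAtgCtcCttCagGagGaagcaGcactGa
Rps27l, plus strand, gene at chr9:66946086-66949516: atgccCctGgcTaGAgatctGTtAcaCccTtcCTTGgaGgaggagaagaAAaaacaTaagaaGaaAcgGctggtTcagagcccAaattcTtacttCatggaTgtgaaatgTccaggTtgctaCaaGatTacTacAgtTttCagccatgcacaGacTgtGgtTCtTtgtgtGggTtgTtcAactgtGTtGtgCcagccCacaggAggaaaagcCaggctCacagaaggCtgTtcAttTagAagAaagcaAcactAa
The differences are spread along the whole coding sequence. In contrast, only 1.6% of the 100-base words of the Rps27 transcript, the length of a read, occur in no other transcript.

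Rpl12, Rpl5 and Rpl10 held 2.91%, 4.49% and 11.8% of the FPKM summed over themselves and their copies. The row with most of the Rpl12 signal was Gm10275 on chr10:29698746-29699380, at 1835, 2004 and 2085 FPKM in control libraries and 1955, 2420 and 2170 FPKM in Znf750 cKO. For Rpl5 it was Gm15500 on chr7:114705217-114706235, at 1694, 1752 and 1749 FPKM in control libraries and 1679, 1975 and 1646 FPKM in Znf750 cKO. For Rpl10 it was Rpl10-ps3 on chr9:50344201-50344968, at 1375, 1474 and 1384 FPKM in control libraries and 1414, 1654 and 1289 FPKM in Znf750 cKO. Each copy has a coding sequence identical to its member's, its groups overlapped, and it lay in the range typical of the other members. Further members with under 50% on their own row were Rpl27a (20.8%), Rps23 (21.3%), Rpl28 (31.2%), Rps20 (33.1%), Rpl31 (33.4%), Rps16 (38.7%), Rpl15 (42.9%), Rpl36a (45.9%) and Rpl10a (47.2%). The low rows of these members are therefore uncertain as levels of the genes themselves.

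**Figure D4:**
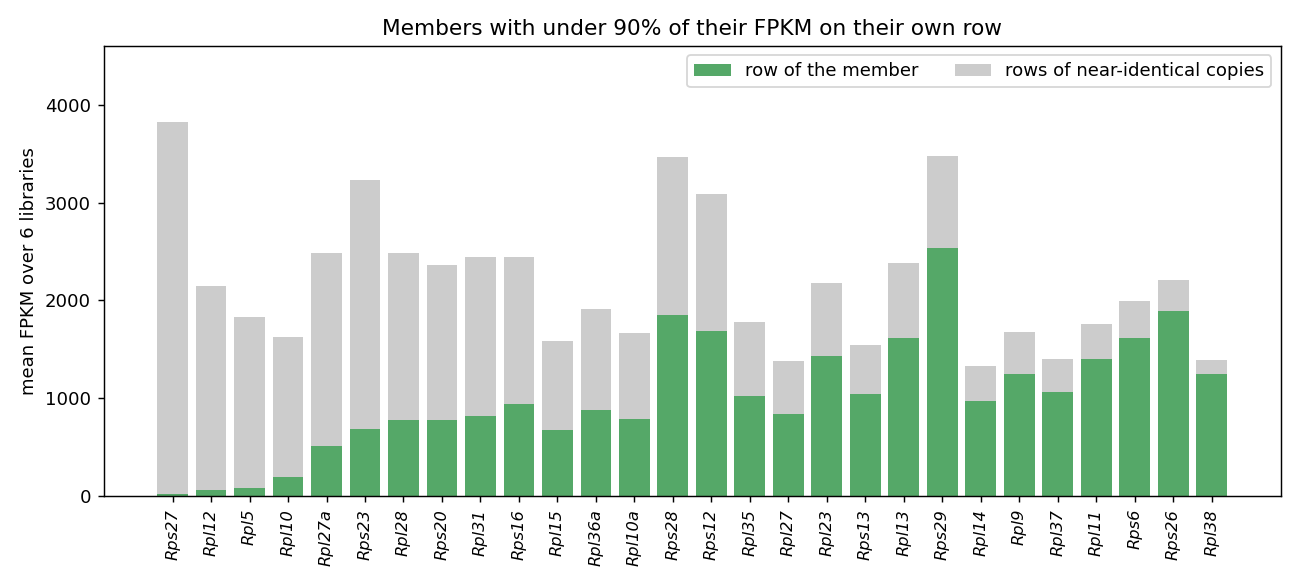
Mean FPKM over the 6 libraries for the members with under 90% of their signal on their own row, with the member's row in green and the rows of its near-identical copies in grey. Rps27, Rpl12, Rpl5 and Rpl10 carry nearly all of their signal on copies, and the stacked heights lie within the range of the other members.

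Adding the copies to their members did not bring any member past the test. With the FPKM of member and copies summed before the fit, 0 of 76 were called and 0 had an unadjusted p under 0.05 by limma. Estimates then ran from -0.085 to 0.20. The estimate of Rps27 moved from 0.17 to 0.053 and that of Rpl5 from 0.19 to 0.032, a shift of 0.156 that was the largest of all members. Rpl12 stayed at 0.14. Of the 69 copies tested as rows of their own by limma, 0 were called and 4 had an unadjusted p under 0.05. Over all tested genes these shares were 4.22% and 21.3%. The copies together were at 30238, 33457 and 32802 FPKM in control libraries and 30833, 37883 and 33844 FPKM in Znf750 cKO.

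The rows of near-identical copies also varied between libraries of a group, as in the case of Rps12. Rps12 itself, a protein of the small subunit beak, was at 1451, 1724 and 1692 FPKM in control libraries and 1661, 1970 and 1630 FPKM in Znf750 cKO. Its copy Rps12-ps3, on chr19:59322290-59322783, was at 772.6, 120.7 and 671.3 FPKM in control libraries and 56.9, 928.7 and 741.6 FPKM in Znf750 cKO. The copy Rps12l1, on chr7:56014016-56014414, was at 503.2, 1333 and 776.0 FPKM in control libraries and 1187, 613.8 and 660.9 FPKM in Znf750 cKO. Control replicate 2 and Znf750 cKO replicate 1 were low in Rps12-ps3 and were the highest libraries of their groups in Rps12l1. The share of Rps12-ps3 in the sum of the copies ran from 4.57% to 60.6%, whereas the sum itself stayed between 1243 and 1543 FPKM. Both copies are identical to Rps12 over its coding sequence.

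**Figure D5:**
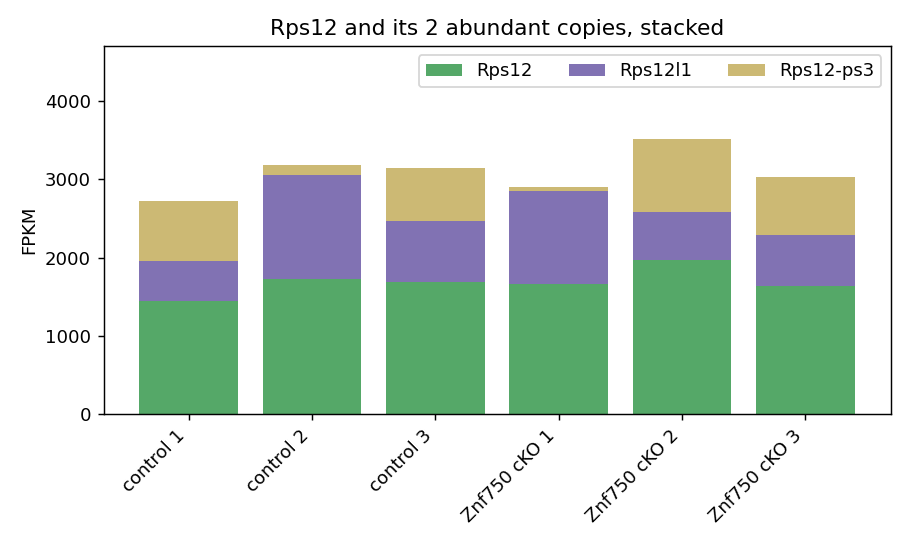
FPKM of Rps12 and its copies Rps12l1 and Rps12-ps3, stacked, in each library. The split between the 2 copies changes from library to library, with Rps12-ps3 at 56.9 FPKM in Znf750 cKO 1 and 928.7 FPKM in Znf750 cKO 2, while the sum of the copies stays between 1243 and 1543 FPKM.

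Ribosomal proteins that the naming rule leaves out had no calls either. Of 10 such genes tested by limma, 0 were called, 0 had an unadjusted p under 0.05, 9 had positive estimates and their median was 0.057. Apart from Rps27rt the most abundant was Rps3a1, at 1949 ± 31.7 FPKM in control and 2097 ± 239 FPKM in Znf750 cKO (SD, n = 3 each). The other messenger RNAs of the 5′ TOP class, 16 genes that include the translation elongation factors, also had 0 calls, 0 with an unadjusted p under 0.05 and a median of 0.089. The most abundant, Eef1a1, which delivers aminoacyl-tRNA, had means of 5971 ± 411 and 5960 ± 689 FPKM (SD, n = 3 each). The proteins of the mitochondrial ribosome are a separate family. Of its 78 tested genes 0 were called and 6 had an unadjusted p under 0.05 by limma, against 21.3% of all tested genes. Positive estimates were found for 24, and the median was -0.089.

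Ribosome assembly factors, which process ribosomal RNA and build the subunits in the nucleolus, had positive estimates for 32 of 36 genes with a median of 0.16, against 0.055 for the members. By limma 0 of the 36 passed the test and 11 had an unadjusted p under 0.05, against 21.3% of all tested genes. Of all 13688 tested genes, 5173 had positive estimates, and their median was -0.077. These values are a description, and whether the list differs from other genes was not tested. Their summed level was 1554 to 1718 FPKM in control and 1776 to 1912 FPKM in Znf750 cKO. The most abundant was Ncl, which encodes nucleolin, at 323.9, 328.3 and 306.6 FPKM in control libraries and 382.0, 380.7 and 361.1 FPKM in Znf750 cKO. The groups did not overlap for Ncl, but its adjusted p by limma was 0.213.

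Among 17 genes that control growth and the ribosomal protein messenger RNAs, 1 rose, 0 fell and the median was 0.20. The gene that rose was Myc, a transcription factor known to drive ribosome production. Myc was at 30.1, 31.0 and 48.6 FPKM in control libraries and 62.0, 65.9 and 72.7 FPKM in Znf750 cKO, a log2 difference of 0.89 ± 0.184 (SE, adjusted p = 0.042 by limma). All Znf750 cKO libraries were above all controls. The call was lost when any library other than control replicate 3 was left out, with adjusted p-values from 0.0995 to 0.138, and it was kept in 12 of 19 alternatives with a range from 0.0102 to 0.17. The components of the mTOR pathway and Larp1, which binds 5′ TOP messenger RNAs, did not pass. Of the 17 genes 14 had positive estimates and 4 had an unadjusted p under 0.05 by limma, against 21.3% of all tested genes. Larp1 was at 0.244 (adjusted p = 0.204 by limma), and its groups did not overlap, as for 28.0% of all tested genes.

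Genes known to respond to the loss of a ribosomal protein did not pass either. Of 9 tested genes, p53, its targets and Kit ligand, 0 were called by limma, 4 had positive estimates and the median was -0.032. An unadjusted p under 0.05 was found for 2 of the 9, against 21.3% of all tested genes. Cdkn1a, the cell cycle inhibitor, was the most abundant at 117.4 ± 18.0 FPKM in control and 110.7 ± 2.02 FPKM in Znf750 cKO (SD, n = 3 each). Kitl, which encodes Kit ligand, was at 12.6, 7.87 and 12.3 FPKM in control libraries and 17.4, 14.1 and 15.5 FPKM in Znf750 cKO. Its groups did not overlap, as for 28.0% of all tested genes, and its estimate was 0.505 (adjusted p = 0.163 by limma). Of 16 cell cycle genes 0 were called and 5 had an unadjusted p under 0.05 by limma, against 21.3% of all tested genes. A positive estimate was found for 1 of the 16, and the median was -0.21. Markers of cell types and states also differed between the groups. Of 7 basal keratinocyte genes 1 rose, 0 fell and 6 had positive estimates, with a median of 0.365. Of 8 differentiated keratinocyte genes 1 rose, 0 fell and 5 had positive estimates, with a median of 0.214. The genes that rose were the integrin gene Itgb4 at 0.67 (adjusted p = 0.0441) and the envelope gene Ivl at 1.79 (adjusted p = 0.0218), by limma. Negative estimates were those of Krt15 in the basal list (-0.33) and of Flg (-0.83), Lor (-0.27) and Tgm3 (-0.20) in the differentiated list, with adjusted p-values by limma of 0.295, 0.102, 0.529 and 0.751. The Flg groups did not overlap, lower in Znf750 cKO. Itgb4 lost its call when any 1 library was left out (adjusted p from 0.056 to 0.159) and kept it in 6 of 19 alternatives. Ivl kept its call in 12 of 19. It lost the call without control replicate 1 or 3 or Znf750 cKO replicate 1 or 2. The call was also lost with the replicate number as a block (adjusted p = 0.0577 by limma). The same held with no filter on low values (0.0682) and without replicate 3 of both groups (0.0874). Among leukocyte genes Tyrobp fell by 2.67 and C1qb by 2.56 on the log2 scale. Of 3 tested red cell genes 1 was called, Hba-a2, which fell by 1.80. Hba-a1 and Hbb-bs were at -1.05 and -1.65, with adjusted p-values by limma of 0.457 and 0.089. Of 2 tested Merkel cell genes 1 was called, Chga, which fell by 3.05. Krt20 was at -0.35 (adjusted p = 0.319 by limma). The part of these changes in the levels of the ribosomal protein genes was not tested.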

How the data were processed

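Poly(A) RNA of newborn epidermis was measured in 3 control and 3 Znf750 cKO libraries. FPKM, 1 value per Ensembl gene and library, is the unit the authors deposited, per the file headers. The submitters' processing notes name RSEM 1.2.28 and DESeq2, the aligner STAR 2.5.2a, the trimmers cutadapt 1.15 and Trim Galore 0.4.5, and the builds mm10 and GRCm38. The annotation release is not given in the sources used here. RSEM is known to divide reads that fit several genes between them, and the kit is not stated to mark strand.

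From the FPKM, log2(FPKM + 1) was fitted with limma 3.58.1 (R 4.3.3), with an intensity trend, robust variances and group as the only term. Genes with at least 1 FPKM in at least 3 libraries were tested, 13688 in all, and p-values were adjusted over all of them by the Benjamini-Hochberg method at 0.05. Differences are on the log2(FPKM + 1) scale, which understates those of low genes. The fit was tested on simulated data with planted differences larger than any member's estimate and with noise drawn separately for each gene. That test does not cover differences as small as those of the members. Errors beside means are SDs. The members and gene lists were chosen with earlier results of these data known. Members named are those with the 3 highest and 3 lowest differences and the 4 highest levels in each subunit, the members of role lists, untested members, Rps19 and Rps20. Of these, 2 members enter all counts but are not reported here by name. Members also named for the share on their copies, Rps12, Rps4l, Kitl and the keratinocyte genes with negative estimates were chosen after their values were seen. So were the red cell and Merkel cell genes that were not called. From other lists the 2 changed genes with the smallest p in each direction are named, or the most abundant gene. The list of mitochondrial ribosomal proteins was added later, and other genes named beside these, such as Krt5, are markers.

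Symbols and coordinates come from GENCODE M21 (GRCm38), where 99.4% of the gene identifiers were found. Copies were searched with blastn 2.17.0. Depth was estimated from FPKM steps, where 69.9% to 76.9% of low values were whole reads within 0.1 read, against 20% by chance, so no count test was run. The labels' replicate numbers were checked as pairs: deviations of same-numbered libraries correlated at 0.306, 0.165 and 0.477 over genes. Control replicate 1 with Znf750 cKO replicate 2 correlated at 0.24, above the value for the replicates numbered 2. The remaining unmatched pairs lay between -0.389 and -0.042. The numbers were treated as pairs in an alternative fit. In all, 19 alternatives were run, 2 of them chosen after seeing the data.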

Additional observations from a re-analysis of the deposited data

How the results depend on the processing

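No member passed the threshold in any of the 19 alternatives, by limma, and the members' smallest adjusted p was 0.174, with median-ratio scaling. The count of changed genes over the whole table, 577 in the fit reported, was 85 with no filter on low values, 327 with a filter of 10 FPKM in 3 libraries and between 100 and 356 when a library was left out, so it depends on which libraries and genes enter. The cause was not tested. With the replicate number as a block, 392 genes were called, the smallest adjusted p of a member was 0.215, and no member's call changed. Without replicate 3 of both groups 390 genes were called. The sign of the members' estimates was not stable: 40 of 76 differed in sign without Znf750 cKO replicate 2 and 27 without control replicate 1, while pseudocounts of 0.1 and 5 changed none. The FPKM of each tested member convert to an estimated 119 reads or more, shared reads included. The 3 libraries per group and the reads shared with copies remain as limits.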
